A study of Mus musculus with 8 samples.

Results

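Hepatic mRNA levels of 36 cell cycle and proliferation genes were compared between wild-type mice administered the atherogenic (ATH) diet and mice administered a standard chow (STD) diet. The 36 genes were taken from a written list of genes that act in the cell cycle, and every one had at least 1 probe under its own name or an older synonym, out of 19147 genes named on the array. They comprised 13 genes of the G1/S transition and DNA replication, 19 genes of mitosis, and the 4 genes Mki67, Ccna2, Ccnd1 and Cdkn1a, which were kept apart from both groups. The liver of each mouse was hybridized to 1 Agilent whole-genome mouse array in 1 color, with 4 arrays per diet. All 8 mice were male and wild-type, of strain C57BL/6 in the labels and C57BL/6J in the methods, and their age was 14 to 17 weeks when feeding began. The ATH diet is rich in fat and cholesterol and also contains cholic acid, and per the methods it is a different commercial product from the STD chow. Both diets were given for 4 weeks, so that the groups differed in diet alone as far as the labels describe them. Whole liver was homogenized, so the values are averages over all its cell types, and more dividing cells and more RNA per cell cannot be told apart. Each value below is the log2 signal of the gene's brightest probe minus the 75th percentile of its array. A value of 0 is thus the level of that percentile, and values of different genes rest on different probes and were not set against each other.

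A dividing cell copies its DNA in S phase and separates the copies in mitosis. Entry into S phase follows when D- and E-type cyclins release E2F transcription factors from the retinoblastoma proteins, and E2F then drives genes of the replication machinery. Genes of G2 and mitosis peak later and are largely controlled by the DREAM complex and by B-Myb with FOXM1, acting through CHR elements. Many of their promoters also hold CCAAT boxes. Hepatocytes of an adult liver are mostly quiescent but keep the capacity to divide after injury, and macrophages and other non-parenchymal cells of the liver can divide too.

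The promoters of the replication and mitotic genes were searched for these elements, and the windows of 5 genes whose levels are described below are shown so that the letters can be seen beside the values. The reference promoters (RefSeq, build GRCm38.p6) run from 250 bases before to 50 bases after each gene's start, and they held 11 of the 13 replication genes and 14 of the 19 mitotic genes. Both strands were searched for an E2F element (TTTCCCGC, TTTGGCGC or TTTCGCGC), the CCAAT box (CCAAT) and the CHR element (TTTGAA), with overlapping matches kept. A gene was counted where any of its promoters held a match. An E2F element was found in 5 of the 11 replication genes (Cdc6, Mcm3, Mcm5, Mcm6 and Mcm7) and in 1 of the 14 mitotic genes (Cdk1). Over the whole reference it was found in 573 of 27025 genes, and by promoter in 606 of 32851 (1.84%). The percentages here and below are shares of promoters, not of genes, as a gene can have several promoters. A CHR element was found in 1 of the 11 replication genes and in 9 of the 14 mitotic genes, against 5466 of the 27025 genes (17.9% of all promoters). A CCAAT box was found in 8 of the 11 and in 11 of the 14, against 11096 of the 27025 genes (37.4% of all promoters). A match describes these letters only. The last 200 bases before the start are printed 5′ to 3′ with every match in capitals, on either strand, so that ATTGG is a CCAAT box read from the opposite strand.
Mcm6 (chr1:128359706-128359905, minus strand): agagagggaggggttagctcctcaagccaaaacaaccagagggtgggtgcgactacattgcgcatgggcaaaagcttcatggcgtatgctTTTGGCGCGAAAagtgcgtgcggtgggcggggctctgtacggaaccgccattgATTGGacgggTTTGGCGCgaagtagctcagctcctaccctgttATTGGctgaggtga
Mcm5 (chr8:75109309-75109508, plus strand): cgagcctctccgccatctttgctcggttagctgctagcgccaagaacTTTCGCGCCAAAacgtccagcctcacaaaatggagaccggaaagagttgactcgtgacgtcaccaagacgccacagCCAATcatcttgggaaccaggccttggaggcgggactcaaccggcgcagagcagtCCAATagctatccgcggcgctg
Rrm2 (chr12:24708054-24708253, plus strand): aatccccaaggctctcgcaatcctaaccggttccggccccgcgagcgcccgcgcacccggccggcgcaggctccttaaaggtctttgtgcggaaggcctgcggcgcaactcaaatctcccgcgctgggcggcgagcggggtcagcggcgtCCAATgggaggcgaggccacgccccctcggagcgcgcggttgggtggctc
Cdk1 (chr10:69352913-69353112, minus strand): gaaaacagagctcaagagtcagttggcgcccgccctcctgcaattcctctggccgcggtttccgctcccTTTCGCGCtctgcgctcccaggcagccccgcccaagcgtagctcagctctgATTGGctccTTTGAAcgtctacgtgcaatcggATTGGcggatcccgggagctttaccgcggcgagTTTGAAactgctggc
Mki67 (chr7:135716380-135716579, minus strand): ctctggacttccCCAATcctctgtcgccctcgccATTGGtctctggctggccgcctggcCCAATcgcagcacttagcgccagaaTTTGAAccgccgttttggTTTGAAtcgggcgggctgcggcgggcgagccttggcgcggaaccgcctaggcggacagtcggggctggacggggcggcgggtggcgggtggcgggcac
Mcm6 and Mcm5 carry E2F letters beside CCAAT boxes and no CHR letters, Rrm2 holds a CCAAT box only, Cdk1 holds all the elements, and Mki67 holds CCAAT and CHR letters.

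Of the 36 genes, 34 had a higher mean on the ATH diet, and 5 of them, Mcm6, Rrm2, Aurkb, Tpx2 and Mki67, were significantly higher at a false discovery rate of 5% (limma, Benjamini-Hochberg over 31063 detected probes). No gene of the list was significantly lower. Among all 16254 genes tested, 9.36% were called in either direction, 4.09% were called higher, 5.27% were called lower and 35.1% had a log2 fold change above 0. By limma 0 of the 36 passed the 1% rate that the methods of the study use, which 0.646% of all genes passed, and 21 of the 36 were higher at an unadjusted p under 0.05, against 11.2% of all genes. In 14 of the 36 every ATH array lay above every STD array, against 7.67% of all genes, and in none did every ATH array lie below, against 14.6% of all genes. All 36 genes passed the filter on low signal, but Aurkb and Bub1 passed it only through the ATH arrays. The STD arrays lay on 1 slide and the ATH arrays on the other, so that for every value below the diet cannot be told apart from the slide.

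**Figure D1:**
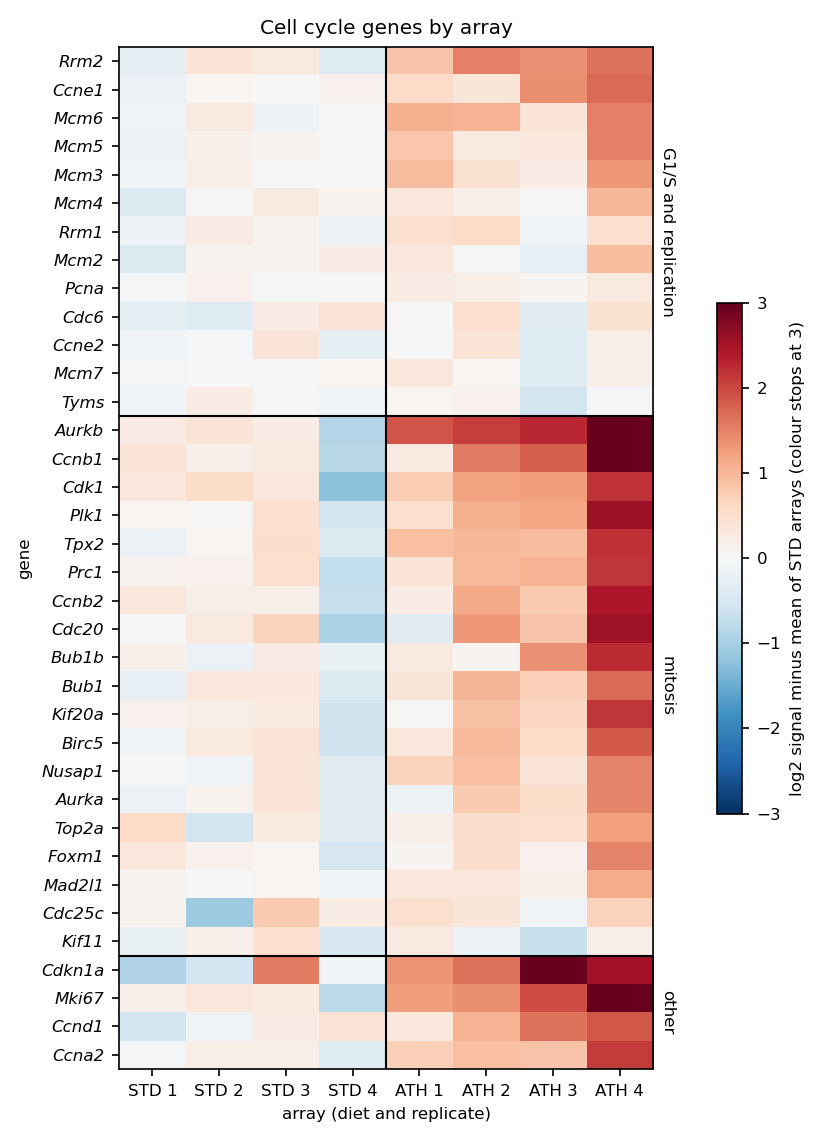
Each row is 1 of the 36 genes, ordered by fold change within its group, and each column is 1 of the 8 arrays; the color is the log2 signal minus the gene's mean over the 4 STD arrays. The mitotic genes are darkest on ATH replicate 4 and palest or blue on STD replicate 4, and the replication genes differ less.

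The arrays held the labelled tissue. All 9 hepatocyte markers with a probe, among them Alb (albumin) and Hnf4a, were detected on all 8 arrays, and their summed signal, in multiples of the array's 75th percentile, ranged from 2463 to 2596 on the STD arrays and from 1602 to 2154 on the ATH arrays. Between 72.4% and 77.8% of spots were well above background. Correlations between arrays of 1 diet ranged from 0.986 to 0.991 for STD and from 0.971 to 0.990 for ATH, and the median SD of a probe was 0.21 and 0.28 respectively. The median log2 fold change of all genes tested was -0.14.

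The genes of the G1/S transition and replication had modest differences between diets. Of the 13, 12 had a higher mean on the ATH diet, 2 (Mcm6 and Rrm2) were called, and the median log2 fold change of the 13 was 0.36, or 1.28-fold. Rrm2, the regulated subunit of ribonucleotide reductase, which makes the deoxynucleotides for DNA synthesis, measured -2.94, -2.26, -2.40 and -3.06 on the 4 STD arrays and -1.81, -1.15, -1.29 and -1.04 on the 4 ATH arrays. All ATH arrays lay above all STD arrays, and the level was 2.54-fold higher on the ATH diet (log2 fold change 1.34 ± 0.24 SE, limma adjusted p = 0.0191). Its partner Rrm1, the large subunit, differed by 0.36 ± 0.19 SE (limma adjusted p = 0.24) and overlapped between diets.

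The MCM genes encode the 6 subunits of the ring-shaped helicase that opens DNA at replication origins, and 1 of the 6 passed the test. Mcm6 measured 1.78, 2.20, 1.77 and 1.93 on the STD arrays and 2.98, 2.96, 2.32 and 3.42 on the ATH arrays. The lowest ATH array was above the highest STD array, and Mcm6 was 1.99-fold higher (log2 fold change 0.995 ± 0.23 SE, limma adjusted p = 0.0373). Mcm5 measured -1.19, -0.85, -0.92 and -1.05 on the STD diet and -0.16, -0.74, -0.69 and 0.50 on the ATH diet, a log2 difference of 0.73 ± 0.26 SE (limma adjusted p = 0.114). Mcm3 measured 0.13, 0.43, 0.18 and 0.23 on the STD diet and 1.18, 0.69, 0.46 and 1.55 on the ATH diet, a log2 difference of 0.72 ± 0.23 SE (limma adjusted p = 0.084). Neither gene overlapped between diets, but ATH replicates 2 and 3 lay close to the STD range and replicates 1 and 4 well above it. The log2 fold changes of Mcm4, Mcm2 and Mcm7 were 0.38, 0.24 and 0.05, none passed the test, and their arrays overlapped. A second, dimmer probe of Mcm4 gave -0.53 (limma adjusted p = 0.196), opposite in sign to the brighter one, and a second probe of Mcm3 gave 0.48.

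Ccne1, which encodes cyclin E1, the partner of Cdk2 at S phase entry, measured -1.60, -1.36, -1.44 and -1.31 on the STD arrays and -0.86, -1.07, -0.04 and 0.26 on the ATH arrays. The diets did not overlap, and the 2 highest ATH arrays were replicates 3 and 4. The log2 difference was 0.998 ± 0.28 SE and missed the 5% rate (limma adjusted p = 0.0631), and a dimmer probe of Ccne1 gave -0.06. Pcna, the sliding clamp of the replicative polymerases, measured 2.79, 2.96, 2.79 and 2.77 on the STD diet and 3.06, 3.0, 2.92 and 3.12 on the ATH diet. Its arrays were tightly grouped, with an SD of 0.087 on the STD diet and 0.088 on the ATH diet, and the small difference of 0.20 ± 0.11 SE did not pass (limma adjusted p = 0.276). The remaining replication genes had small differences that did not pass the test: Cdc6, which loads the MCM helicase, Ccne2 (cyclin E2) and Tyms (thymidylate synthase) had log2 fold changes of 0.15, 0.06 and -0.10, and Tyms was the only one of the 13 with a lower mean on the ATH diet. A dimmer probe of Cdc6, detected on no STD array, gave 0.68 (limma adjusted p = 0.196).

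**Figure D2:**
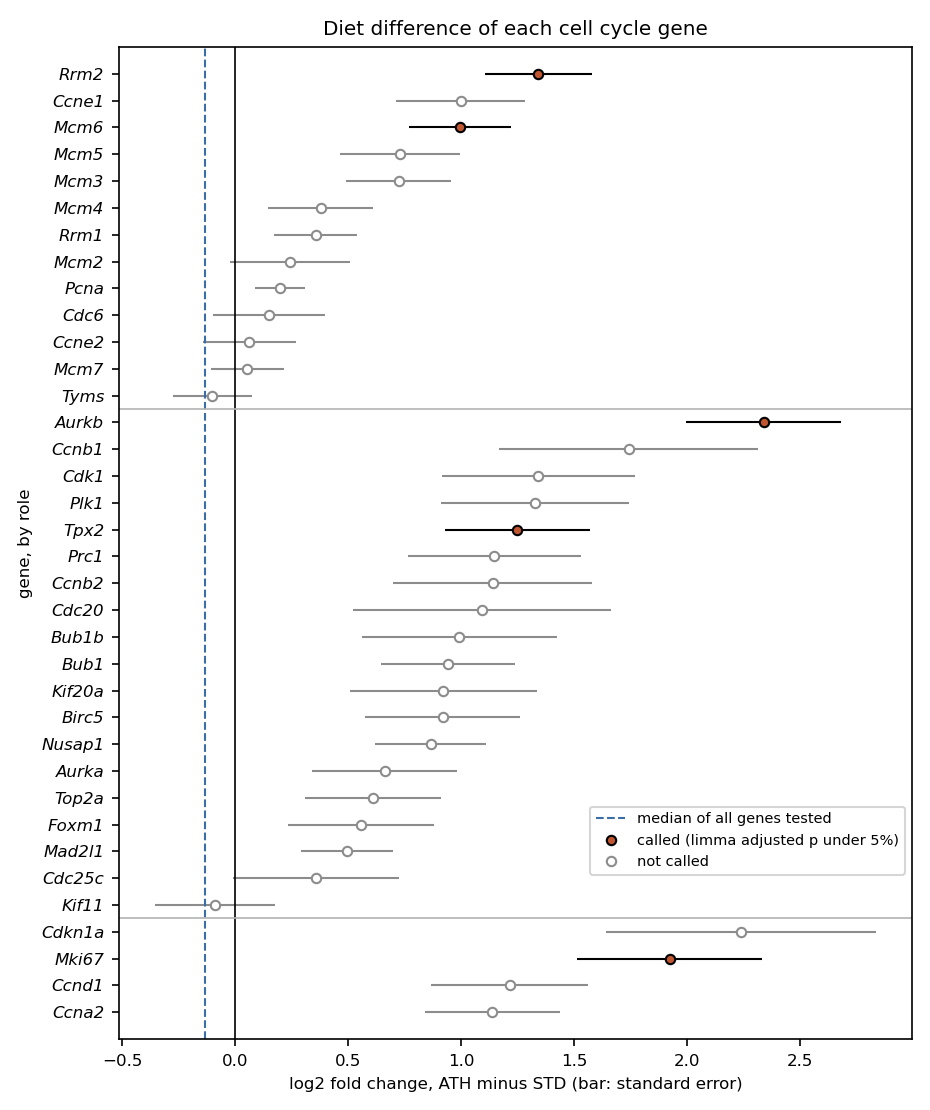
Points give the log2 fold change (ATH minus STD) of each of the 36 genes and bars its standard error; filled points passed the 5% rate by limma, and the dashed line marks the median of all genes tested at -0.14. Mitotic genes spread from -0.09 for Kif11 to 2.34 for Aurkb, and replication genes from -0.10 for Tyms to 1.34 for Rrm2.

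Mitotic genes had larger differences with a wider spread between mice. Of the 19, 18 had a higher mean on the ATH diet, 2 (Aurkb and Tpx2) were called, and the median log2 fold change of the 19 was 0.94, or 1.92-fold. Of the 19, 12 were higher at an unadjusted p under 0.05, beside 5 of the 13 replication genes. Aurkb encodes the kinase of the chromosomal passenger complex, which corrects the attachment of chromosomes to the spindle. It measured -6.04, -5.90, -6.07 and -7.18 on the STD arrays, where it was not well above background on any array, and -4.40, -4.22, -4.03 and -3.18 on the ATH arrays, where it was detected on all 4. With these signals its level was at least 5.07-fold higher on the ATH diet (limma adjusted p = 0.0119). The bound sets the mean of the ATH arrays against the mean of the STD arrays, taking on each STD array the higher of the probe's own signal and the lowest signal of any probe well above background. The probe's own signal was the higher of these, so the bound equals the measured fold. It is no limit over other settings: without STD replicate 4 the log2 difference was 2.05. With another background correction, normexp, which also added an offset of 50 to every intensity, the log2 difference of Aurkb was 0.15 (limma adjusted p = 0.381). The call of this dim probe therefore depends on the treatment of low signals. The parts of background removal and of the offset, which shrinks differences of dim probes, were not separated for any normexp value.

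Tpx2 encodes a spindle assembly factor that activates Aurora A. It measured -3.87, -3.63, -3.16 and -4.12 on the STD arrays and -2.80, -2.71, -2.76 and -1.51 on the ATH arrays. The diets did not overlap, with 3 ATH arrays within 0.1 of each other and replicate 4 far above them, and the level was 2.38-fold higher (log2 fold change 1.25 ± 0.32 SE, limma adjusted p = 0.0487, and 0.0601 with normexp). Aurka, the kinase that Tpx2 activates, differed by 0.66 ± 0.32 SE (limma adjusted p = 0.211) with overlapping arrays. Birc5, which encodes survivin, a partner of Aurkb, differed by 0.92 ± 0.34 SE (limma adjusted p = 0.122).

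Cdk1 and Plk1, kinases that act at entry into mitosis, were higher on every ATH array than on any STD array but missed the 5% rate. For Plk1 the margin was narrow, with the lowest ATH array at -1.84 against the highest STD array at -1.85. Cdk1, the catalytic subunit of the mitotic kinase, measured -3.12, -2.93, -3.13 and -4.70 on the STD diet and -2.71, -2.27, -2.22 and -1.31 on the ATH diet, a log2 difference of 1.34 ± 0.43 SE (limma adjusted p = 0.0838). Plk1, a kinase of mitotic entry and spindle function, measured -2.27, -2.30, -1.85 and -2.88 on the STD diet and -1.84, -1.26, -1.14 and 0.26 on the ATH diet, a log2 difference of 1.33 ± 0.42 SE (limma adjusted p = 0.0803). In both genes STD replicate 4 was the lowest and ATH replicate 4 the highest of the 8 arrays. The cyclin partners of Cdk1, Ccnb1 and Ccnb2, had log2 differences of 1.74 ± 0.57 SE and 1.14 ± 0.44 SE (limma adjusted p = 0.0899 and 0.131). The other 2 tested probes of Ccnb1 gave 0.58 (limma adjusted p = 0.234) and 0.97 (0.315). Their arrays overlapped because ATH replicate 1, at -4.29 for Ccnb1 and -0.62 for Ccnb2, lay within the STD range. The difference of Cdc25c, a phosphatase that activates Cdk1, was 0.36, and that of Foxm1, a transcription factor of the mitotic genes, was 0.56. Neither passed the test.

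None of the spindle and checkpoint genes other than Aurkb and Tpx2 passed the test. Nusap1, a microtubule-binding protein of the spindle, measured -3.01, -3.10, -2.65 and -3.35 on the STD diet and -2.35, -2.12, -2.64 and -1.54 on the ATH diet, a log2 difference of 0.87 ± 0.25 SE (limma adjusted p = 0.0632). Bub1, a kinase of the spindle checkpoint, measured -5.42, -4.84, -4.85 and -5.58 on the STD diet and -4.82, -4.16, -4.45 and -3.48 on the ATH diet, a log2 difference of 0.94 ± 0.30 SE (limma adjusted p = 0.0823). Mad2l1, another checkpoint protein, measured -2.41, -2.49, -2.44 and -2.63 on the STD diet and -2.16, -2.15, -2.30 and -1.37 on the ATH diet, a log2 difference of 0.49 ± 0.20 SE (limma adjusted p = 0.152). In all 3 genes the diets did not overlap but the margin was narrow, with the lowest ATH array at -2.64 against the highest STD array at -2.65 for Nusap1, and Bub1 was detected on 2 of the 4 STD arrays. Normexp background moved the log2 fold change of Bub1 to -0.01, and a dimmer probe of Nusap1 gave -0.36. The other 6 mitotic genes ranged from -0.09 to 1.15, and none passed the test: Prc1, which bundles the microtubules of the central spindle, 1.15; Cdc20, an activator of the anaphase-promoting complex, 1.09; Bub1b, a checkpoint protein, 0.99; Kif20a, a kinesin of cytokinesis, 0.92; Top2a, the topoisomerase that untangles sister chromosomes, 0.61; and Kif11, the kinesin that separates the spindle poles, -0.09, the only one of the 19 with a lower mean.

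**Figure D3:**
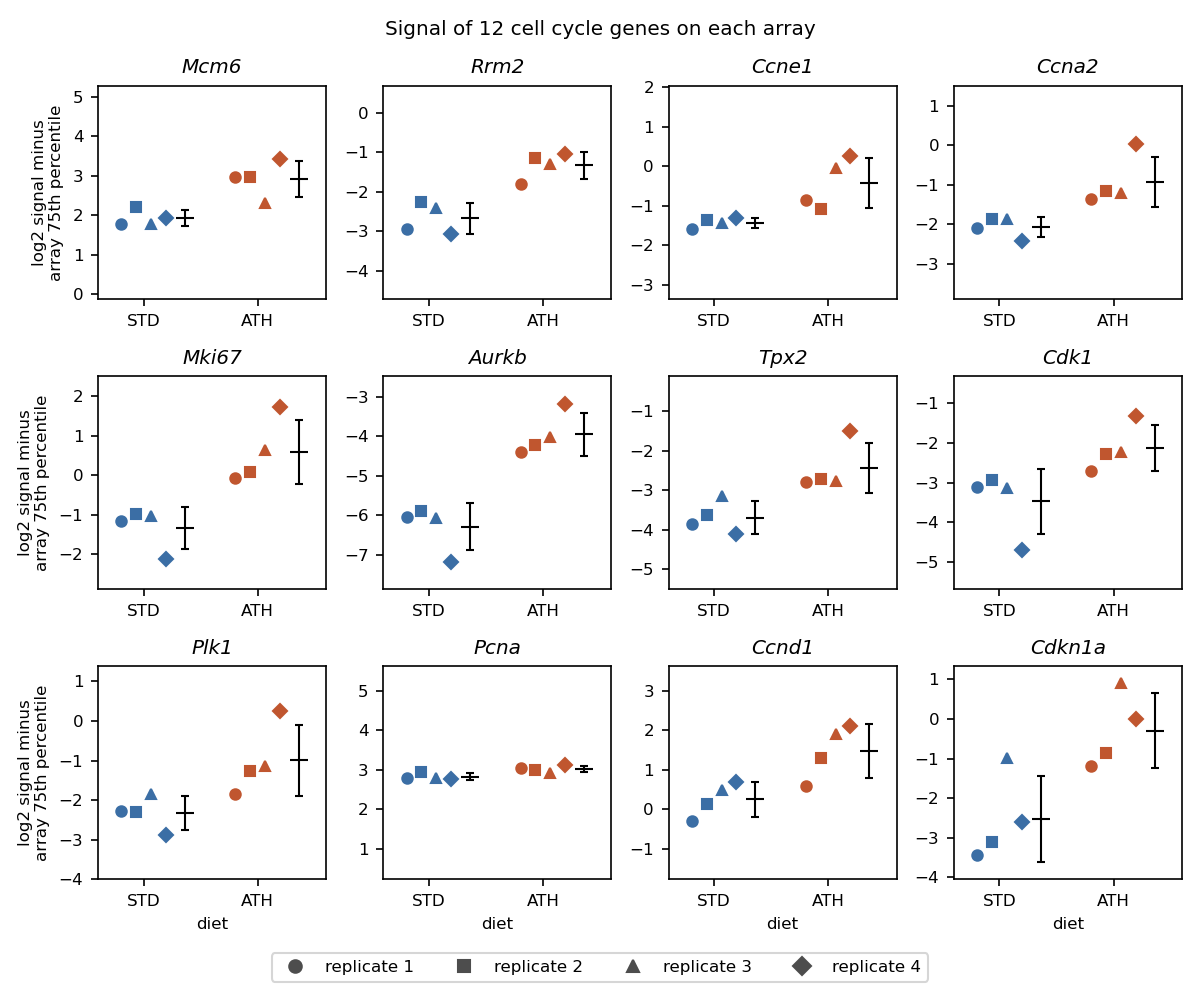
Points give the scaled log2 signal of 12 of the genes on each of the 4 STD and 4 ATH arrays, with the replicate number shown by the marker; bars give the mean and SD of each diet, and every panel spans the same number of log2 units. Rrm2 and Mcm6 separate with all ATH arrays raised, and in Tpx2, Cdk1, Plk1 and Ccna2 replicate 4 of at least 1 diet lies away from the other arrays of its diet.

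Of the 4 genes kept apart, all had a higher mean on the ATH diet and 1 was called. Mki67, which encodes the Ki-67 antigen that marks cycling cells in histology, measured -1.17, -0.98, -1.04 and -2.11 on the STD arrays and -0.06, 0.08, 0.63 and 1.73 on the ATH arrays. The diets were well apart, and Mki67 was 3.80-fold higher on the ATH diet (log2 fold change 1.92 ± 0.41 SE, limma adjusted p = 0.0319). A second, dimmer probe of Mki67 gave 2.01 (limma adjusted p = 0.0391). Ccna2, cyclin A2, which acts in both S phase and G2, measured -2.11, -1.88, -1.87 and -2.43 on the STD diet and -1.36, -1.17, -1.21 and 0.02 on the ATH diet. Its diets did not overlap, and the log2 difference of 1.14 ± 0.30 SE fell just short of the 5% rate (limma adjusted p = 0.0519).

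Ccnd1 and Cdkn1a act against each other on the G1 kinases, and both had higher means on the ATH diet that missed the 5% rate. Ccnd1, cyclin D1, the growth factor-responsive cyclin of G1, measured -0.31, 0.14, 0.49 and 0.69 on the STD diet and 0.58, 1.29, 1.89 and 2.11 on the ATH diet. STD replicate 4 lay above ATH replicate 1, so the diets overlapped, and the difference of 1.22 ± 0.35 SE had a limma adjusted p of 0.0642. Cdkn1a, which encodes the kinase inhibitor p21, a target of p53, measured -3.43, -3.11, -0.98 and -2.61 on the STD diet and -1.19, -0.87, 0.90 and -0.01 on the ATH diet. STD replicate 3 reached the ATH range, and the difference of 2.24 ± 0.60 SE had a limma adjusted p of 0.0539. Cdkn1a passed without STD replicate 3 (limma adjusted p = 0.044) or ATH replicate 2 (0.0483), and Ccnd1 passed without ATH replicate 1 (0.0361). With the replicate number added to the model as a block, both passed (limma adjusted p = 0.02955 for Ccnd1 and 0.0187 for Cdkn1a). In that fit Mcm6, Tpx2 and Mki67 were no longer called.

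The calls rested on few mice. With 1 array left out, the number of called genes among the 36 ranged from 1 to 8, while the calls over all genes, 1522 with all arrays, ranged from 229 to 2414. Aurkb was called in each of these fits, but it entered the test only through the ATH arrays, where it was high. Rrm2 was lost without STD replicate 1 (limma adjusted p = 0.06005) or STD replicate 4 (0.0532), and without ATH replicate 3 (0.0527) or ATH replicate 4 (0.0553). Mki67 was lost without any of the STD replicates (limma adjusted p from 0.0555 to 0.0785), without ATH replicate 3 (0.0763) and without ATH replicate 4 (0.052). Mcm6 was lost without any of the STD replicates (limma adjusted p from 0.056 to 0.0977), without ATH replicate 1 (0.0636) and without ATH replicate 4 (0.0823). Tpx2 was called only when all arrays were kept or when ATH replicate 2 was left out, and its limma adjusted p otherwise ranged from 0.0597 to 0.12. Ccnb1 was gained without ATH replicate 1, and Ccne1 and Ccna2 were gained without ATH replicate 2. The log2 fold change of Tpx2 stayed between 0.94 and 1.43, and that of Mki67 between 1.55 and 2.14.

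Replicate 4 of each diet stood at the ends of the mitotic range. ATH replicate 4 was the highest ATH array for 18 of the 19 mitotic genes and 8 of the 13 replication genes, against 18.2% of all genes. STD replicate 4 was the lowest STD array for 17 of the 19 mitotic genes and 5 of the 13 replication genes, against 28.9% of all genes. With each gene set against its mean on the STD diet, the median deviation of the mitotic genes was 0.10, 0.13, 0.34 and -0.51 on the STD arrays and 0.32, 0.96, 0.72 and 2.15 on the ATH arrays. The same median of the replication genes was -0.17, 0.13, 0.09 and -0.01 on the STD arrays and 0.34, 0.36, 0.04 and 0.94 on the ATH arrays. The median of the replication genes on ATH replicate 3 therefore lay within the range of the STD medians, and so did that of the mitotic genes on ATH replicate 1, although single genes of both groups lay above every STD array there. The arrays of replicate 4 also had the lowest share of spots well above background on their slides, 72.4% for STD and 72.9% for ATH, and both lay at the same position of their slides. The part of these technical values in the mitotic levels was not tested. Without both of these arrays, a choice made after their values were seen, the mitotic median was 0.48 in place of 0.94, the replication median was 0.21 in place of 0.36, and Aurkb, which entered the test only through the ATH arrays, was the 1 gene of the 36 called (limma adjusted p = 0.0148), with 104 calls over all genes. Without ATH replicate 4 alone the medians were 0.61 and 0.18.

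The median of the replication genes minus that of the mitotic genes, in which an array's scaling constant cancels, was -0.27, 0.00, -0.26 and 0.50 on the STD arrays and 0.02, -0.60, -0.67 and -1.21 on the ATH arrays. Over the 4 ATH arrays this had a mean of -0.62 ± 0.50 (SD), and over the 4 STD arrays a mean of -0.0077 ± 0.36 (SD). These are medians of deviations from each gene's STD mean, not of signal levels. The ATH mean minus the STD mean was -0.61, so by median the mitotic genes rose further above their own STD means than the replication genes. However, ATH replicate 1 lay within the STD range, and no test was made because the groups of genes were chosen with results known. With normexp background the difference was -0.18, without STD replicate 4 it was -0.34, and without replicate 4 of both diets it was -0.21.

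Markers of other cell types differed between diets as well, beside 4.09% of all genes called higher and 5.27% called lower. All 12 macrophage markers had a higher mean on the ATH diet and 7 were called, among them Cd68, Lyz2, Itgax and Ccr2. Their summed signal ranged from 88.2 to 98.5 times the 75th percentile on the STD arrays and from 163.9 to 581.9 on the ATH arrays. Their median deviation from the STD mean was 1.54, 0.64, 2.60 and 2.58 on ATH replicates 1 to 4, so the arrays ranked differently from the mitotic genes except that replicate 4 was high in both. Single markers of this list differed in size: Clec4f was higher by 0.32 and was not called. Cd5l was higher by 1.69 (limma adjusted p = 0.00904), with every ATH array above every STD array. Kinds of macrophage were not told apart by these markers. Of 10 T and B cell markers 0 were called by limma. An unadjusted limma p under 0.05 was found for 4, of which 3 were higher and Cd3e was lower (-0.71). Their sums were 1.67 to 2.24 on the STD diet and 1.48 to 4.35 on the ATH diet. Of the 5 neutrophil markers tested 0 were called by limma, 2 were higher at an unadjusted p under 0.05, and the sums were 1.28 to 2.97 and 2.90 to 14.1. Among all genes tested, 11.2% were higher at an unadjusted limma p under 0.05. One marker each was called higher of 8 stellate cell (Col3a1), 6 endothelial cell and 5 cholangiocyte markers (Sox9), 2 of 9 hepatocyte markers were called lower (Tat and Ass1), and 1 of 3 tested erythroid markers was called lower (Alas2). The part of these cell types in the cell cycle values was not tested.

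**Figure D4:**
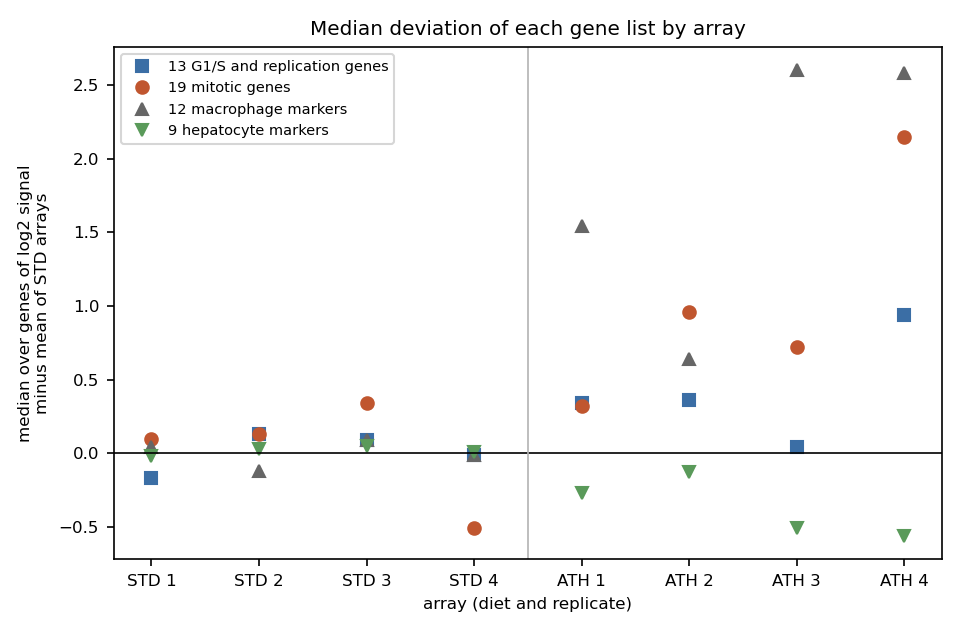
Each point is the median over a gene list of the log2 signal minus the gene's mean on the STD arrays, for each of the 8 arrays. On ATH replicate 4 the mitotic genes (2.15) and the macrophage markers (2.58) were both high, whereas on ATH replicate 3 the macrophage markers were at 2.60 and the mitotic genes at 0.72.

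Other genes of the cycle, from written lists of their own, are given for comparison. Of the other G1, replication and mitosis genes together, 98 were tested, 9 were called higher and 3 lower. Among all genes tested, 4.09% were called higher and 5.27% lower. Of 43 other mitosis genes tested, 35 had a higher mean on the ATH diet, 5 were called higher and 1 lower, and the median log2 fold change was 0.58. Ncapg, a condensin subunit, was higher by 1.42 (limma adjusted p = 0.0489), and Incenp, the scaffold that holds Aurora B, by 1.08 (0.0372). Incenp measured 0.43, 0.47, 0.50 and 0.01 on the STD diet and 1.26, 0.90, 1.47 and 2.08 on the ATH diet, so the diets did not overlap and replicate 4 again marked both ends. Cdca2 was called lower on its brightest probe (-0.62, limma adjusted p = 0.0444), while its other 2 probes gave 0.55 and 0.81. Cenpe, a kinetochore motor, was called higher on its brightest probe (1.45, limma adjusted p = 0.0477), while another probe detected on all arrays gave -0.29 (0.594). Cdca5, which encodes sororin, the protector of sister cohesion, was called higher on its brightest probe (1.09, limma adjusted p = 0.0382), while its other probe gave -0.47 (0.209). The direction of these 3 genes is not settled. Of 31 other replication genes tested, 20 had a higher mean, 2 were called higher and 1 lower, and the median was 0.13. Uhrf1, which carries DNA methylation through replication, was higher by 1.29 (limma adjusted p = 0.0303). Mcm10, a replication initiation factor, was lower by its single probe: 5.51, 5.77, 5.42 and 5.73 on the STD diet and 4.60, 4.86, 4.39 and 3.79 on the ATH diet (log2 fold change -1.20 ± 0.22 SE, limma adjusted p = 0.0222).

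Of 24 other genes of G1 and the checkpoints that were tested, 13 had a higher mean, 2 were called higher and 1 lower, and the median log2 fold change was 0.02. For this list and the p53 targets below, the shares over all genes were again 4.09% called higher and 5.27% lower. E2f2, an activating E2F factor, measured -0.96, -0.37, -0.19 and -0.67 on the STD diet and 0.34, 1.39, 0.68 and 1.44 on the ATH diet (log2 fold change 1.51 ± 0.28 SE, limma adjusted p = 0.022). E2f8, an E2F that represses its targets, measured 1.57, 1.33, 1.81 and 1.81 on the STD diet and 0.06, 0.44, 0.35 and -1.11 on the ATH diet (log2 fold change -1.70 ± 0.32 SE, limma adjusted p = 0.0232), and its other probe gave -1.14 (0.00709). Neither gene overlapped between diets. The other E2F genes of the list, E2f1, E2f3 and E2f7, had log2 fold changes of -0.31, -0.09 and 0.48, and none was called. Rbl1, which encodes p107, a pocket protein of the DREAM complex, was higher by 1.15 (limma adjusted p = 0.042). Of 22 p53 target genes other than Cdkn1a, 14 had a higher mean, 2 were called higher and 1 lower, and the median was 0.13. Pmaip1, which encodes the pro-apoptotic protein Noxa, was 5.52-fold higher and passed the 1% rate (log2 fold change 2.46 ± 0.29 SE, limma adjusted p = 0.00623), Phlda3, an inhibitor of Akt, was higher by 1.18 (0.0441), and Bbc3, the pro-apoptotic gene of Puma, was lower (log2 fold change -0.99, limma adjusted p = 0.0191). Across these 4 lists 1 gene, Ttk, was not well above background on any array of either diet.

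**Figure D5:**
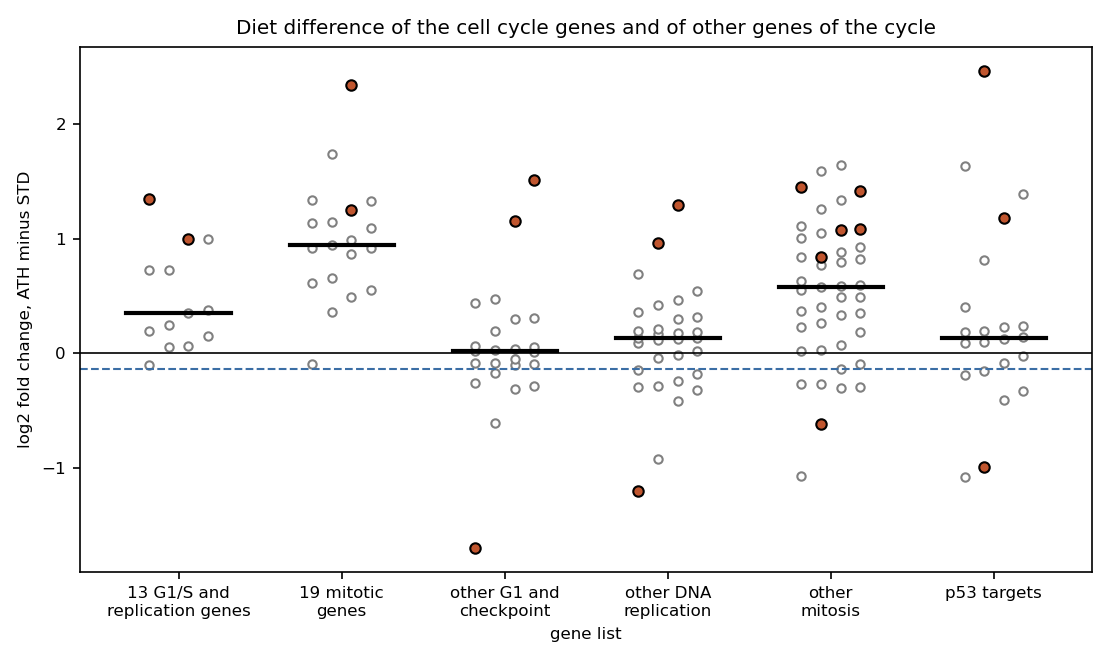
Points give the log2 fold change (ATH minus STD) of each tested gene, filled where it passed the 5% rate by limma; thick lines are list medians and the dashed line is the median of all genes tested. The medians were 0.36 for the 13 replication genes, 0.94 for the 19 mitotic genes, 0.02, 0.13 and 0.58 for the other G1, replication and mitosis genes, and 0.13 for the p53 targets.

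The probes of the 5 called genes lie, in the mm7 build that the array files use, at chr1:128211735-128211794 (Mcm6), chr12:22550253-22550307 (Rrm2), chr11:69133109-69133168 (Aurkb), chr2:152634597-152634656 (Tpx2) and chr7:132094802-132094861 (Mki67). Exons of that build were not analysed here. Across the 36 genes 56 probes were named and 49 tested. Several tested probes were available for 11 genes, and in 4 of these (Ccne1, Mcm4, Nusap1 and Kif11) the probes differed in sign.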

How the data were processed

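Liver RNA of 4 STD and 4 ATH mice was measured on 1-color Agilent arrays, 1 mouse each, and samples were grouped by their labels. Per the labels, the authors extracted spots with Agilent Feature Extraction version 9.5, and the deposited array files hold background-subtracted, detrended intensity values that were not scaled between arrays. The authors also deposited a log2 table made in GeneSpring. Of its rows 31595 matched. For the matched rows detected on all 8 arrays, the table equals the log2 intensity plus a constant per probe and per array, within 0.001. Matched rows not detected on all 8 arrays were not compared in this way.

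Control spots were left out and spots of a probe averaged. Log2 intensity minus the array's 75th percentile over 41174 probes was tested with limma 3.58.1 in R 4.3.3 (lmFit and eBayes, two-sided) over the 31063 probes detected on at least 3 of 4 arrays of a diet, and Benjamini-Hochberg adjusted. Probes were named by the file's symbol (24524) or an older synonym (7770), and 8880 kept no current name. The brightest probe stood for a gene. Steps were tested on simulated data. Tables used Python 3.11.15, numpy 2.4.6 and pandas 2.3.3, and plots matplotlib 3.10.9.

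The genes and lists were chosen with earlier results of these data known, so no list was tested. Values on every array were given for genes called or not overlapping and for Pcna, Ccnd1 and Cdkn1a. Of the other lists, called genes were named, at most the 4 largest each way. The values of 1 called gene are not reported here. Alternatives covered scaling, background, the deposited values, the filter, the test, the threshold, the probe, names, the block and each array left out. The number of arrays limits the precision.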

Additional observations from a re-analysis of the deposited data

Results flagged for a closer look

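In 8 of the 72 sets of 4 arrays examined (36 genes on each diet), 1 array stood apart, with a gap to its nearest neighbour that took up more of the diet's range than Dixon's 95% critical value for 4 values. Chance alone gives about 1 in 20 such sets, and the sets share arrays. STD replicate 4 was low for Cdk1 (-4.70, nearest -3.13), Aurkb (-7.18, nearest -6.07, none of the STD arrays well above background) and Mki67 (-2.11, nearest -1.17). ATH replicate 4 was high for Tpx2 (-1.51, nearest -2.71), Mad2l1 (-1.37, nearest -2.15) and Ccna2 (0.02, nearest -1.17). The other sets were Pcna, where STD replicate 2 was at 2.96 (nearest 2.79), and Rrm1, where ATH replicate 3 was at 0.15 (nearest 0.74). Replicate 4 of a diet thus accounted for 6 of the 8.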

How the results depend on the processing

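The 5 calls at a 5% rate, with 1522 over all genes, became 7 with scaling by the array median (all genes 1188). They became 14 with spike-in scaling (1934), 24 without scaling (4440) and 9 with normexp background (3450, Aurkb and Tpx2 lost). Other settings gave 4 with the deposited values (1458), 2 without the detection filter (589) and 0 at the 1% rate (105). An unequal-variance test per probe, the kind of test the methods name, gave 0 (11) at the 5% rate. It was run here on the values described above. Its count is not that of the study's own list, which the methods made in Genespring at 1%. Without replicate 4 of both diets the count was 1 (104). The 12 calls among other cell cycle genes became 22 with spike-in scaling, 48 without scaling and 18 with normexp. They became 3 without the filter, 1 without replicate 4 of both diets, 0 at the 1% rate and 0 by the unequal-variance test. With each array left out the calls ranged from 1 to 8 and from 0 to 14. Arrays of 1 number share a slide position, and across probes the residuals of the 4 pairs had r = 0.0998, 0.229, 0.181 and 0.175, each above the STD array's r with any other number, as a hint from the data only. As 1 was under 0.1, a cutoff chosen here and missed narrowly, the arrays were not taken as paired. With the replicate block there were 4 and 3 calls, the 4 being Rrm2 (limma adjusted p = 0.0405), Aurkb (0.0494), Ccnd1 (0.0295) and Cdkn1a (0.0187), while Mcm6 (0.0503), Tpx2 (0.0907) and Mki67 (0.0739) were not called. Scaling moved the median of all genes from -0.14 to 0.17 with spike-ins and 0.31 without scaling, as the 75th percentile of the ATH arrays was higher by 0.45 and their spike-ins by 0.14, and the replication median without scaling was 0.80. Above the median of all genes, the replication genes stood at 0.49 and the mitotic genes at 1.08 under each of these scalings. Normexp gave mitotic and replication medians of 0.52 and 0.36.

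Signs turned for these genes. Kif11 was 0.024 with quantile normalization, 0.22 with spike-ins, 0.36 without scaling, 0.14 on its dimmest probe, 0.025 as the mean of its probes, and -0.24 to 0.097 without single arrays. Tyms was 0.21 with spike-ins, 0.34 without scaling and -0.18 to 0.049 without single arrays. With normexp Cdc6, Ccne2, Cdc25c and Bub1 were -0.17, -0.27, -0.12 and -0.0071. Bub1 was 0.94 as reported. On the dimmest probe Ccne1, Mcm4 and Nusap1 were -0.06, -0.53 and -0.36, and Mcm4 was -0.076 as the mean of its probes. Ccne2 was -0.08 without replicate 4 of both diets and -0.055 to 0.21 without single arrays, when Cdc25c ranged from -0.0092 to 0.62 and Mcm7 from -0.042 to 0.19. The cause of these shifts was not tested. Signal over background limits the dim probes of Aurkb and Bub1.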
